A study of Homo sapiens with 12 samples.

Results

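The regions described here are enhancer-like stretches of chromatin of Huh7 cells at which no H2A.Z peak had been called in control cells. They were chosen by control peak calls, as control H3K27ac peaks at least 500 bp wide on chromosomes 1 to 22 and X that overlap a control H3K4me1 peak of at least that width and no control H2A.Z peak of any width. The rule was met by 4043 of the 25333 H3K27ac peaks of that width (16%), which is 55% of the 7356 that overlapped such an H3K4me1 peak. The remaining 3313 enhancer-like peaks overlapped control H2A.Z and serve as the comparison. The 3 lists used by the rule describe the regions and are no finding about them. The results concern the 7 lists outside the rule, which are control H2A.Zac, control FLAG and the 5 lists of overexpression.

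Enhancers are regulatory DNA elements away from the promoter that they act on. Their nucleosomes usually carry H3K4me1, monomethylation of histone H3 at lysine 4, and those in use also carry H3K27ac, acetylation at lysine 27. H2A.Z is a variant of histone H2A that is common around active promoters and at many enhancers, and its acetylated form, H2A.Zac, is linked to activity. VPS72, also called YL1, is an H2A.Z-binding subunit of the SRCAP and TIP60 complexes, of which SRCAP exchanges H2A for H2A.Z and TIP60 is also a histone acetyltransferase.

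Huh7 is a hepatocellular carcinoma line. Both groups carried a FLAG tag knocked in by Cas9 where the VPS72 coding sequence ends, in colonies that had survived blasticidin. The sources used here do not give whether 1 or several colonies were used. The control had been infected for 24 h with the empty lentivirus (lenti-HA), and the overexpression cells for 24 h with a lentivirus carrying VPS72-FLAG. The FLAG antibody therefore had the endogenous tagged protein as its target in the control and both proteins with overexpression. Chromatin immunoprecipitation and sequencing (ChIP-seq) gave 12 libraries, 1 per condition for input and for each antibody, which were directed at H3K27ac, H3K4me1, H2A.Z, H2A.Zac and FLAG. No condition had a replicate, so no difference was tested, and the intervals below are 95% intervals that cover counting error only. Cells without a tag were not analysed here, so a FLAG peak need not be a place where VPS72 binds.

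Deposited lists ended at a p of 0.05, and peaks with a q of 0.05 or less are counted beside them. Recovered depth was 17.9 to 25.02 M (mega) reads for the histone libraries and 4.38 and 3.07 M for FLAG in the control and with overexpression, at an assumed genome size of 2.7 Gb. The lists differed in length. FLAG had 184114 peaks in the control and 551907 with overexpression, and H2A.Z had 182213 and 57951. A control H2A.Z peak had at least 4 reads at its summit, a height of 2.86 times the genome average of that library. A member without an H2A.Z peak is therefore a region below the limit of the list, which does not show that H2A.Z was absent. An input peak overlapped 3 members in the control and 1 with overexpression.

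By the marks that chose them, the members were narrower and weaker than the enhancer-like peaks with H2A.Z. Their median width was 962 bp (quartiles 664 and 1680.5 bp, largest 9099 bp), against 1392 bp, and together they covered 5.44 Mb. The median H3K27ac fold, the authors' ratio of the summit to the local background, was 4.37 against 6.04, and the median summit held 15 reads against 22. An H3K27ac q of 0.05 or less was found in 79.6% of the members. At the width limit, the 155 members of 500 to 520 bp had a median fold of 3.17 and the 165 otherwise like regions of 480 to 499 bp had one of 2.95. At the other edge of the rule, 50 members lay within 100 bp of a control H2A.Z peak (median H3K27ac fold 3.71), and 78 enhancer-like regions overlapped one by at most 100 bp (3.47). The H3K27ac summit lay inside a control H3K4me1 peak in 62.1% of the members and in 43% of the regions with H2A.Z, and the highest H3K4me1 summit inside the region lay at a median of 306 bp from the H3K27ac summit, against 511 bp. These distances were not compared at like width, and the members were narrower.

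Acetylated H2A.Z was called at most of these regions although total H2A.Z was not. A control H2A.Zac peak overlapped 2132 of the 4043 members, 52.7% (51.2 to 54.3%), against 96.1% of the regions with H2A.Z and a background of 80.3% of all 25333 H3K27ac peaks. The share was close to that of the 5541 H3K27ac peaks with neither H2A.Z nor such an H3K4me1 peak, 52.0% (50.7 to 53.3%), so it is not particular to the enhancer-like regions. With a q of 0.05 or less it was 34.2% of members, against 72.5% in the background. Where present, the peak was small, with a median fold of 3.32 and 11 summit reads, against 5.88 and 23 reads at the regions with H2A.Z. It covered 26.9% of the bases of the members, and in 1424 members it covered the H3K27ac summit itself. The label "without H2A.Z" therefore holds for calls with the antibody to total H2A.Z and not for calls with the antibody to its acetylated form. How the 2 antibodies differ in sensitivity was not tested.

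**Figure D1:**
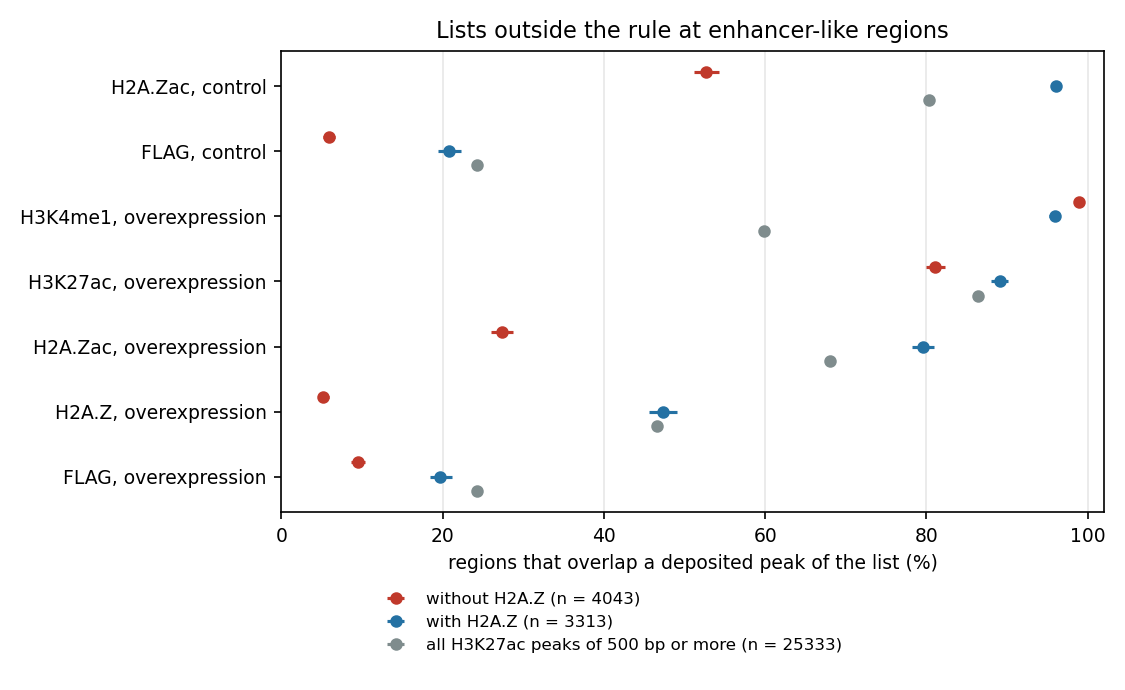
Share of regions (x axis, in %) that overlap a deposited peak of each of the 7 lists outside the rule (y axis), for the 4043 enhancer-like regions without control H2A.Z, the 3313 with it and all 25333 control H3K27ac peaks of 500 bp or more. Bars are Wilson 95% intervals. The members lie lowest for both H2A.Zac lists, both FLAG lists, H2A.Z and, by less, H3K27ac, and highest for H3K4me1.

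The plot of shares by list gives the other lists on the same scale. H2A.Zac of overexpression was found at 1104 members, 27.3% (26.0 to 28.7%), against 79.6% of the regions with H2A.Z and a background of 68%. With a q of 0.05 or less this fell to 12.3% of members, against 57.9%. Both conditions shared H2A.Zac at 988 members, the control alone had it at 1144, overexpression alone at 116, and 1795 had it in neither. Where the conditions differed, the call was thus mostly that of the control. The background share also fell, from 80.3% in the control to 68%. The split by condition was not made over all H3K27ac peaks.

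H2A.Z itself was rarely called at the members with overexpression. Its peaks overlapped 207 members, 5.12% (4.48 to 5.84%), against 47.3% of the regions with control H2A.Z and a background of 46.6%. Those regions and 62.2% of the background had a control peak of this antibody, and the members were chosen to have none. A lower share at the members is therefore partly set by the rule. Only 16 members (0.396%) had an H2A.Z peak with a q of 0.05 or less, against 26.3% in the background. These peaks had a median of 8 reads and a fold of 2.98. Of the 207 members, 194 had H2A.Zac in the control, 93.7% (89.6 to 96.3%), whereas 50.5% (48.9 to 52.1%) of the other 3836 did. All 16 with the stricter q had it. H2A.Z with overexpression was thus mostly called at members with H2A.Zac in the control, although the 2 lists came from different antibodies and conditions. The same split was not made over all H3K27ac peaks, of which 80.3% had control H2A.Zac, so it need not be particular to the members.

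FLAG was called at few members. In the control it overlapped 237, 5.86% (5.18 to 6.63%), against 20.8% of the regions with H2A.Z and a background of 24.2%. With overexpression it overlapped 383, 9.47% (8.61 to 10.4%), against 19.7% and a background of 24.3%. Both intervals of the members lie far under those values. The larger share with overexpression went with the longer list of that library, in which 149 of the 383 members had only peaks of 1 read. With a q of 0.05 or less the order turned, to 2.57% in the control and 1.41% with overexpression, against backgrounds of 13.8% and 8.81%. FLAG was found in both conditions at 109 members, in the control alone at 128 and with overexpression alone at 274. At the stricter q these were 42, 62 and 15, and neither split was made over all H3K27ac peaks. Among the 69 members with a FLAG summit inside the region in both conditions, the height over the genome average was higher with overexpression in 50.7%, against 56.1% of all H3K27ac peaks with both, and the median ratio was 1.01 (0.923 to 1.15).

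The 5541 peaks with neither H2A.Z nor such an H3K4me1 peak had 4 of the lists more often than the members. There H2A.Zac of overexpression was at 32.9% (31.7 to 34.1%), H2A.Z of overexpression at 9.15% (8.42 to 9.94%), and FLAG at 9.6% (8.85 to 10.4%) in the control and 14.9% (14.0 to 15.9%) with overexpression. Each of these 4 intervals lies above that of the members. H3K27ac of overexpression was lower there, at 73.0% (71.9 to 74.2%). Those peaks were also narrower and weaker, with a median width of 737 bp and an H3K27ac fold of 4.04.

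H3K27ac was found again with overexpression at 3280 members, 81.1% (79.9 to 82.3%), against 89.1% of the regions with H2A.Z and a background of 86.4%. The stricter q left 62.8%, against 74.1%. H3K4me1 was found again at 3999, 98.9% (98.5 to 99.2%), against 95.9% and a background of 59.9%, and the stricter q left 96.5%, against 52.7%. The background for H3K4me1 is over peaks that were mostly not chosen for that mark. Both marks were kept at 3255 members, H3K4me1 alone at 744, H3K27ac alone at 25 and neither at 19. This split was not made over all H3K27ac peaks. The 763 members without H3K27ac of overexpression were weaker and narrower, with a median width of 639 bp and a control height of 5.34, against 1135 bp and 9.62 for those that kept it. They also had control H2A.Zac less often, at 30.1% (26.99 to 33.5%) against 58.0% (56.3 to 59.7%).

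At the members with a summit of both conditions inside the region, H3K27ac was lower and H3K4me1 higher with overexpression. Height stands for summit reads divided by the mean coverage of the genome in that library. For H3K27ac its median was 10.2 in the control and 7.46 with overexpression, with a median ratio of 0.752 (0.742 to 0.760) over 2880 members. H3K27ac was lower in 87.8% of these members, against a background of 88.4%, so the direction is that of H3K27ac peaks in general. H2A.Zac had a median ratio of 0.695 (0.676 to 0.711) over 862 members and was lower in 89.6%, against a background of 96%. At the regions with H2A.Z that ratio was 0.642 (0.637 to 0.652), a larger fall than at the members beyond the counting intervals. At the H3K27ac peaks with neither H2A.Z nor such an H3K4me1 peak it was 0.679 (0.668 to 0.695). That interval overlaps the one of the members, so the smaller fall is not particular to them. Peaks lost with overexpression do not enter these ratios. H2A.Zac calls went from 52.7 to 27.3% of the members and from 96.1 to 79.6% of the regions with H2A.Z. The smaller fall in height therefore covers only the members that had a summit in both conditions.

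H3K4me1 heights had medians of 7.25 and 9.25, with a median ratio of 1.31 (1.28 to 1.31) over 2243 members. They were higher with overexpression in 85%, against a background of 83.2%. The shortest peak, a measure of the length to which reads had been extended, was 214 bp in the control and 255 bp with overexpression, and its part in this ratio was not tested. Bases told the same of H3K4me1, which covered 58.0% of the bases of the members in the control and 76.4% with overexpression. Its strongest peak on a member had a median width of 871 bp and 1782 bp, and any peak of the mark covered the H3K27ac summit of 62.1% and 80.9% of members. More or less of a mark and a better or worse enriched library cannot be told apart with 1 library per condition.

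**Figure D2:**
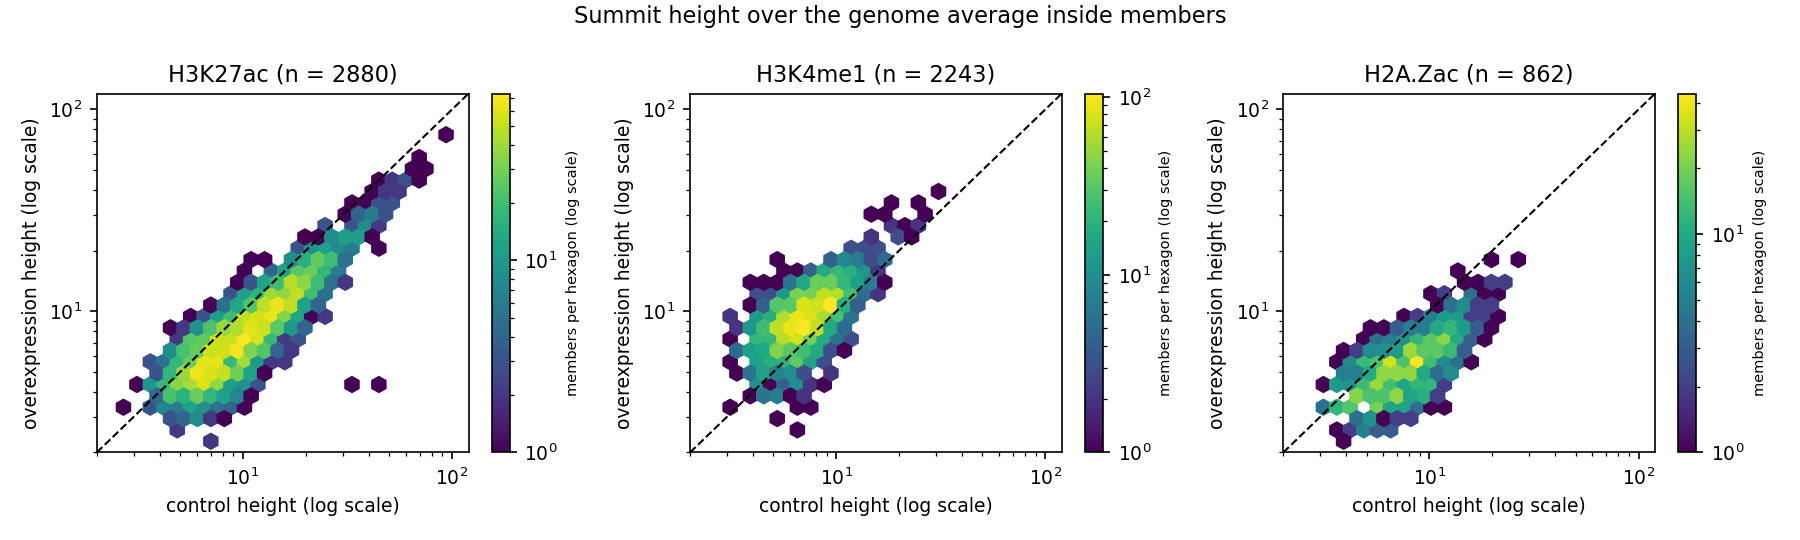
Summit height over the genome average of the library, control (x axis) against overexpression (y axis), both on log scales, for members with a summit of the mark inside the region in both conditions. Colour gives the number of members in a hexagon and the dashed line marks equal heights. Most members lie under the line for H3K27ac and H2A.Zac (87.8 and 89.6%) and above it for H3K4me1 (85%).

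Because the rule read the control lists, the same rule was also applied to the overexpression lists, an alternative chosen after the data were seen. It gave 7615 regions, and 2367 members (58.5%) overlapped one of them. Control H2A.Z was found at 28.5% of those regions, control H2A.Zac at 63.1% and control FLAG at 6.79%. Their median height ratios were 0.764 for H3K27ac, 1.31 for H3K4me1 and 0.683 for H2A.Zac. Heights thus differed the same way whichever condition chose the regions.

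Stronger members more often had control H2A.Zac. Enhancer-like regions were divided into 5 classes by the −log10 q of their control H3K27ac, with upper limits of 1.86, 4.29, 8.51 and 17.6 for the first 4. Control H2A.Zac was found at 30.5% (27.8 to 33.4%) of the 1023 members of the weakest class and at 88.2% (85.0 to 90.8%) of the 475 of the strongest. The regions with H2A.Z had 87.1% (83.6 to 89.9%) and 99.9% (99.4 to 100%). The strongest members thus had H2A.Zac about as often as the weakest regions with H2A.Z. Members also widened with strength, from a median of 640 bp in the weakest class to 2707 bp in the strongest, which makes an overlap easier.

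H2A.Z of overexpression did not close the gap in the same way, a gap that the rule partly sets. It was found at 3.91% (2.88 to 5.28%) of the weakest and 8.21% (6.06 to 11.0%) of the strongest members, against 35.3% (31.0 to 39.9%) and 63.8% (60.8 to 66.8%) of the regions with control H2A.Z. Control FLAG was at 5.96% (4.67 to 7.59%) and 10.9% (8.45 to 14.1%) of the members, and at 10.4% (7.86 to 13.6%) and 37.6% (34.6 to 40.6%) of the regions with H2A.Z. Among the members FLAG was flat over the first 4 classes, at 4.78 to 5.96%.

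H3K27ac of overexpression went with strength and not with H2A.Z. It was found at 53.3% (50.2 to 56.3%) of the weakest members and 51.5% (46.8 to 56.2%) of the weakest regions with H2A.Z. In the next classes it was 76.1 against 77.0%, 93.5 against 95.1% and 99.5% for both, and in the strongest class 100% for both. With 3 classes of width inside each class of strength, 15 in all, the members had H3K27ac less often in 5, more often in 5 and equally in the others, and in none beyond the intervals.

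In the same 15 classes the members had control H2A.Zac, H2A.Z of overexpression and H2A.Zac of overexpression less often in all 15, each time beyond the intervals. Control FLAG was less frequent in 15 and beyond the intervals in 8, and FLAG of overexpression in 15 and 5. H3K4me1 of overexpression was more frequent at the members in 15 of 15. The difference in H2A.Zac therefore held at like strength and width of H3K27ac, and the difference in H3K27ac itself did not. FLAG kept its direction, but not beyond the intervals in every class. For H2A.Z the outcome is partly set by the rule, since only the comparison regions had a control peak of this antibody.

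**Figure D3:**
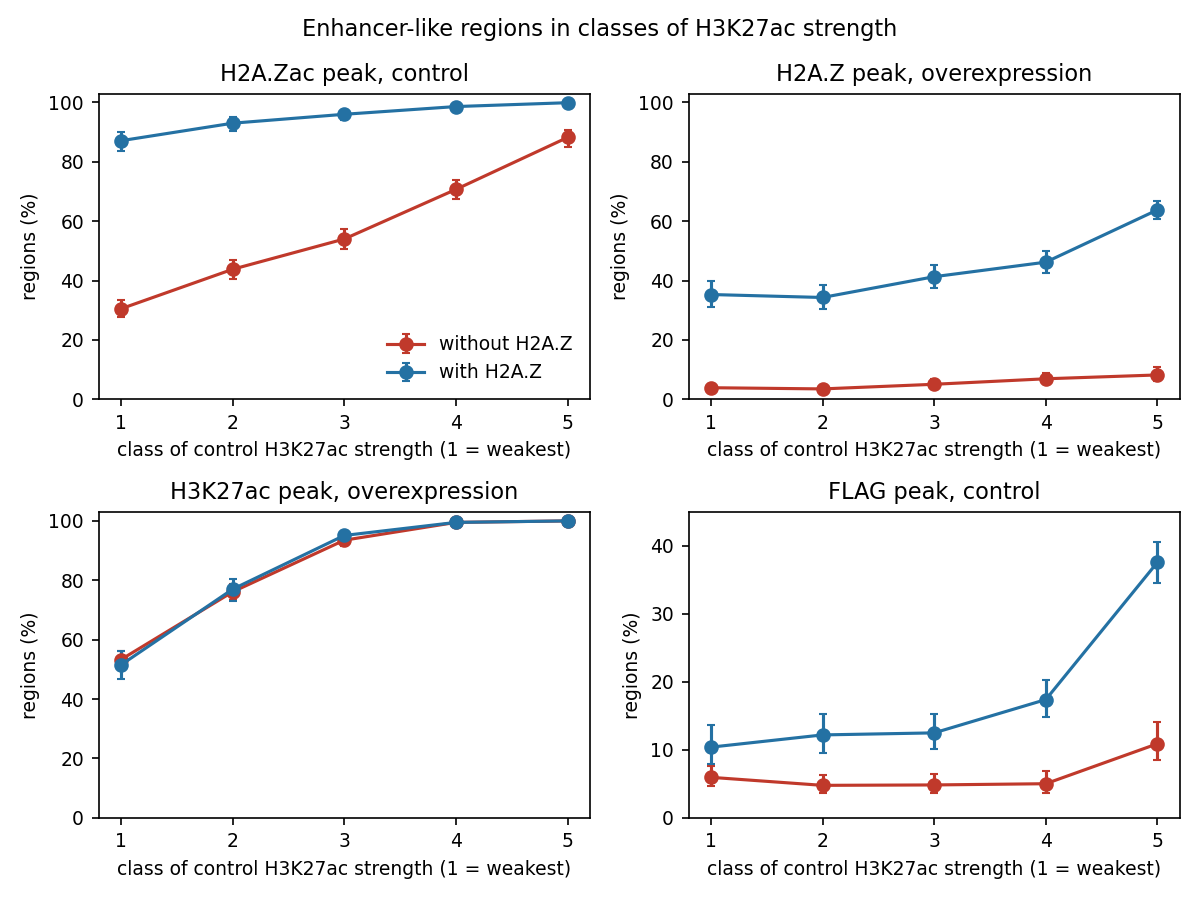
Share of enhancer-like regions (y axis, in %) with a peak of the named list, in 5 classes of control H3K27ac strength (x axis, 1 is the weakest), for regions without and with control H2A.Z. Bars are Wilson 95% intervals, and the y axis of the FLAG panel ends at 45%. H2A.Zac, H2A.Z and FLAG are lower at the members in each class, while the H3K27ac lines lie on each other.

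The members with and without control H2A.Zac differed in several ways. This split was not made over all H3K27ac peaks, so the differences need not be particular to the members. The 2132 with it were wider (median 1282 against 770 bp), had higher H3K27ac summits (19 against 13 reads) and lay closer to control H2A.Z (4760 against 9977 bp). H2A.Z of overexpression was called at 9.10% (7.95 to 10.4%) of them and at 0.680% (0.398 to 1.16%) of the 1911 without. That order held in 15 of 15 classes of strength and width, in 9 beyond the intervals. H2A.Zac of overexpression was called at 46.3% (44.2 to 48.5%) against 6.07% (5.09 to 7.23%), beyond the intervals in 15 of 15. FLAG of the control was called at 7.36% (6.33 to 8.55%) against 4.19% (3.38 to 5.18%), and H3K27ac of overexpression at 89.2 against 72.1%. In the 15 classes of strength and width neither differed beyond the intervals. In the 5 larger classes of strength alone each did in 1. Control FLAG was at 9.62% (6.82 to 13.4%) against 4.36% (3.09 to 6.12%) in the weakest class. H3K27ac was at 96.2% (94.0 to 97.6%) against 90.5% (87.2 to 93.0%) in the middle one.

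Members with FLAG in the control often had it with overexpression too. Of these 237, 46.0% (39.8 to 52.4%) had FLAG with overexpression, against 7.20% (6.42 to 8.06%) of the other 3806. They had H2A.Zac in the control at 66.2% (60.01 to 72.0%) against 51.9% (50.3 to 53.5%), and H2A.Z of overexpression at 10.5% (7.25 to 15.1%) against 4.78% (4.15 to 5.51%). H3K27ac of overexpression was about equal, at 82.7 and 81.0%. FLAG with H2A.Z of overexpression on 1 member remained rare, at 39 members with FLAG of either condition. The split by control FLAG was not made over all H3K27ac peaks, so it need not be particular to the members.

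Many members lay near H2A.Z without touching it. The median distance to the nearest control H2A.Z peak was 6877 bp (quartiles 2239 and 17988 bp). A peak lay within 1 kb of 566 members (14%, background 17.2% of the 9584 H3K27ac peaks without H2A.Z) and within 5 kb of 1730 (42.8%, background 42.9%). Within 1 kb the members were thus below the other H3K27ac peaks without H2A.Z, of which 19.5% (18.5 to 20.6%) had a peak that near, against 14.0% (13.0 to 15.1%). Within 500 bp it was 7.87% (7.08 to 8.74%) against 12.8% (11.96 to 13.7%), and at 5 kb 42.8% against 43.0%.

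Among the members, nearness to control H2A.Z went with H2A.Zac and H2A.Z. Distance classes were not made for the other H3K27ac peaks without H2A.Z, so this need not be particular to the members. Control H2A.Zac was at 68.9% (65.0 to 72.6%) of the members within 1 kb, 60.7% from 1 to 5 kb, 50.1% from 5 to 20 kb and 36.5% (33.4 to 39.7%) beyond. H2A.Z of overexpression followed the same order, with 8.66% (6.61 to 11.3%), 7.13%, 4.32% and 1.55% (0.928 to 2.59%). Control FLAG was at 7.24% (5.38 to 9.68%) and 3.44% (2.43 to 4.84%) in the nearest and farthest class, while FLAG of overexpression was at 7.95% (5.99 to 10.5%) and 10.7% (8.80 to 12.8%), with overlapping intervals. H3K27ac of overexpression did not follow distance, at 77.6 to 81.9%. Median H3K27ac height was 8.01 in the nearest class and 7.48 in the farthest, and median width 818.5 and 971 bp, so the nearest members were not the widest.

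**Figure D4:**
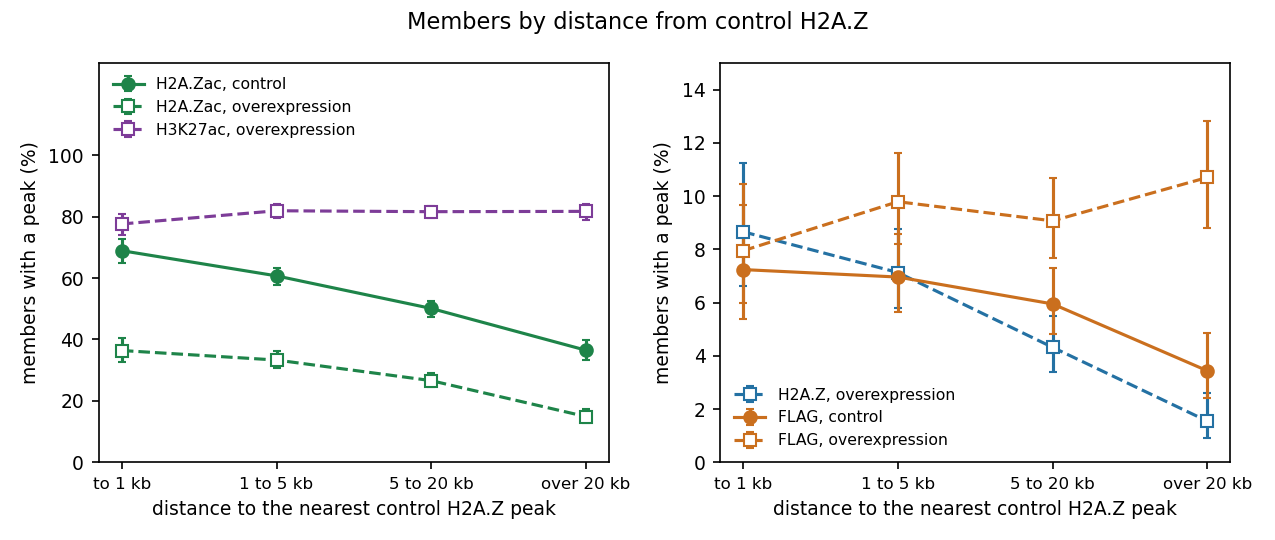
Share of members (y axis, in %) with a peak of the named list, by distance from the member to the nearest control H2A.Z peak (x axis); filled circles are control lists and open squares overexpression lists. Bars are Wilson 95% intervals, and the panels have different y axes. Control H2A.Zac goes from 68.9% in the nearest to 36.5% in the farthest class, and H3K27ac stays at 77.6 to 81.9%.

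A large group of members had none of the lists outside the rule other than H3K27ac and H3K4me1 of overexpression. These were 1600 regions (39.6%) with a median width of 750.5 bp, and 1140 of them kept H3K27ac. With H3K4me1 of overexpression left aside, H3K27ac alone was the most frequent combination (28.2%). Control H2A.Zac with H3K27ac followed (20.2%), and then H2A.Zac of both conditions with H3K27ac (16.3%). No such list at all was found at 460 members (11.4%). Combinations were not counted over all H3K27ac peaks or in the other classes, so these shares need not be particular to the members.

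The strongest members show the same combinations one by one, and coordinates are those of hg19. The strongest by −log10 q lay at 22q12.1 (chromosome 22, 29194205 to 29198498), with 187 reads and an H3K27ac fold of 41.6 in the control and 158 reads and 31.9 with overexpression. It had H2A.Zac in both conditions (folds 7.76 and 6.16), no FLAG in the control and a FLAG peak of 5 reads with overexpression. The nearest control H2A.Z peak was 5347 bp away. Its control H2A.Zac summit had 35 reads, against medians of 11 at members with that peak and 23 at such regions with H2A.Z. This member thus had strong H3K27ac, an H2A.Zac call in both conditions and no call of total H2A.Z.

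The next lay at 12q24.31 (chromosome 12, 121415254 to 121419571), with H3K27ac folds of 32.1 and 30.1 and H2A.Zac folds of 9.89 and 5.27. Its H2A.Z peak of overexpression had 7 reads and a fold of 1.98. The third lay at 15q26.1 (chromosome 15, 91413557 to 91419701), with H3K27ac folds of 37.6 and 19.8, H2A.Zac in both conditions (5.05 and 4.55) and FLAG in both (6 and 7 reads). The fourth, at 19p13.3 (chromosome 19, 797179 to 800220), had H3K27ac folds of 30.9 and 20.6 and lost its H2A.Zac peak with overexpression. All 4 had the lower H3K27ac fold with overexpression. They were picked by their control H3K27ac, so this order is partly set by the choice and is no finding about them. Of the 4, 3 kept H2A.Zac, against 66.3% of the 419 members of the strongest class that had it in the control.

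The widest member, at 11q13.1 (chromosome 11, 65880261 to 65889359), measured 9099 bp and also had the strongest H3K4me1 of overexpression, with a fold of 7.60 and 78 reads, against 5.57 and 59 reads in the control. The local background at its H3K27ac summit was 5.44 times the genome average, so its reads stood on a raised baseline. The second widest, at 1p36.12 (chromosome 1, 23879878 to 23888935; 9058 bp), had a background of 1.81 and H3K27ac folds of 21.7 (control) and 25.5 (overexpression). Those at 11q12.1 (chromosome 11, 57542999 to 57551855) and 4q13.3 (chromosome 4, 74207016 to 74215235) followed, with H3K27ac folds of 12.1 and 10.2 and of 9.75 and 10.3. None of these 4 had FLAG in either condition. After 11q13.1, H3K4me1 of overexpression was strongest at 11p14.1 (chromosome 11, 27231395 to 27231957) and at a further 11q12.1 member (chromosome 11, 57263977 to 57267839). At 11p14.1 the H3K4me1 fold went from 4.30 to 7.89 on a local background of 4.30, and at 11q12.1 from 5.997 to 8.15 on one of 2.79. All 3 of these thus lay on chromosome 11 with a raised background.

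The strongest FLAG peaks did not lie on the strongest members, as the 4 members named here ranked 1777, 2024, 3035 and 3898 of 4043 by control H3K27ac. The one at 20q13.13 (chromosome 20, 47551898 to 47552643) had FLAG folds of 11.8 (25 reads) and 8.71 in the 2 conditions, and an H3K27ac fold of 4.33. It had neither H2A.Zac nor H2A.Z in either condition, and its FLAG summit of overexpression lay outside the member. At 5p13.2 (chromosome 5, 37519139 to 37519855), FLAG had 20 reads in each condition with folds of 8.66 and 9.02, and again no H2A.Zac or H2A.Z peak was called. The member at 9q34.3 (chromosome 9, 139878995 to 139879668) had FLAG folds of 12.1 and 7.69 and kept neither H3K27ac nor H3K4me1, and its FLAG summits lay outside the member. The member at 1p36.33 (chromosome 1, 1279960 to 1281084) had FLAG folds of 11.2 and 2.33, a weak H2A.Zac peak of 6 reads in the control and no H3K27ac with overexpression. Its fold of 11.2 was that of a peak 3023 bp wide, while the highest control FLAG summit inside the member had 9 reads. The FLAG summit of overexpression lay outside that member. Of these 4 members, 3 lost H3K27ac. Over all members with FLAG in the control 82.7% kept it, against 81% of the other members, so the count holds for these 4 alone.

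H2A.Z of overexpression was strongest at 15q26.1 (chromosome 15, 91426767 to 91429436), with a fold of 4.37 and 12 reads. This member had a peak of all 7 lists outside the rule, with FLAG of 11 and 10 reads and H2A.Zac folds of 4.88 in the control and 10.0 with overexpression. Its H2A.Zac fold was thus the higher one with overexpression, and the nearest control H2A.Z peak was 10230 bp away. Those at 12q24.31 (chromosome 12, 123547594 to 123548123) and 3q22.1 (chromosome 3, 129252961 to 129254544) followed with H2A.Z of 12 and 13 reads. Both had H2A.Zac in both conditions and no FLAG.

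The 3 strongest control H2A.Zac peaks on members lay next to control H2A.Z. They lay at 20q13.33 (chromosome 20, 62709906 to 62710420), 12q13.12 (chromosome 12, 49741824 to 49742644) and 11q12.1 (chromosome 11, 57366335 to 57366992), with folds of 14.99, 12.4 and 8.14. Control H2A.Z lay 162, 244 and 247 bp from them, and the H2A.Zac summit was outside the member each time. The strongest H2A.Zac of overexpression with its summit inside was that of the 15q26.1 member above, followed by 5q31.3 (chromosome 5, 141735706 to 141738042), with H2A.Zac folds of 10.7 (control) and 9.29 (overexpression), and 22q11.21 (chromosome 22, 20103870 to 20105936), with 11.7 and 5.83. Control H2A.Z was 13390 and 12670 bp away from this pair, so H2A.Zac was also called far from it.

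Members without H3K27ac of overexpression ranked low in the control. The strongest of these lay at 11p11.2 (chromosome 11, 45412239 to 45412979), with a control fold of 8.04 and 23 reads, and ranked 748 of the 4043 by H3K27ac. It was followed by 20q11.21 (chromosome 20, 30295719 to 30296244; fold 5.96, rank 969) and 19p13.11 (chromosome 19, 18589267 to 18589820; fold 6.81, rank 983). All 3 kept H3K4me1, with folds of 6.99, 7.79 and 5.40, against 4.74, 3.36 and 4.50 in the control.

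Strong members without H2A.Zac, H2A.Z or FLAG in any list also existed. The strongest, at 20q11.21 (chromosome 20, 30281733 to 30288820; 7088 bp), had 84 H3K27ac reads in the control and 55 with overexpression, with folds of 15.05 and 7.95. Its H3K4me1 folds were 5.10 and 8.74. The next lay at 10p14 (chromosome 10, 7747251 to 7751163) and 1p33 (chromosome 1, 47841898 to 47846826), with control H3K27ac folds of 18.2 and 18.0 and 60 reads each. H3K27ac at a high level thus occurred without a call of either H2A.Z antibody.

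**Figure D5:**
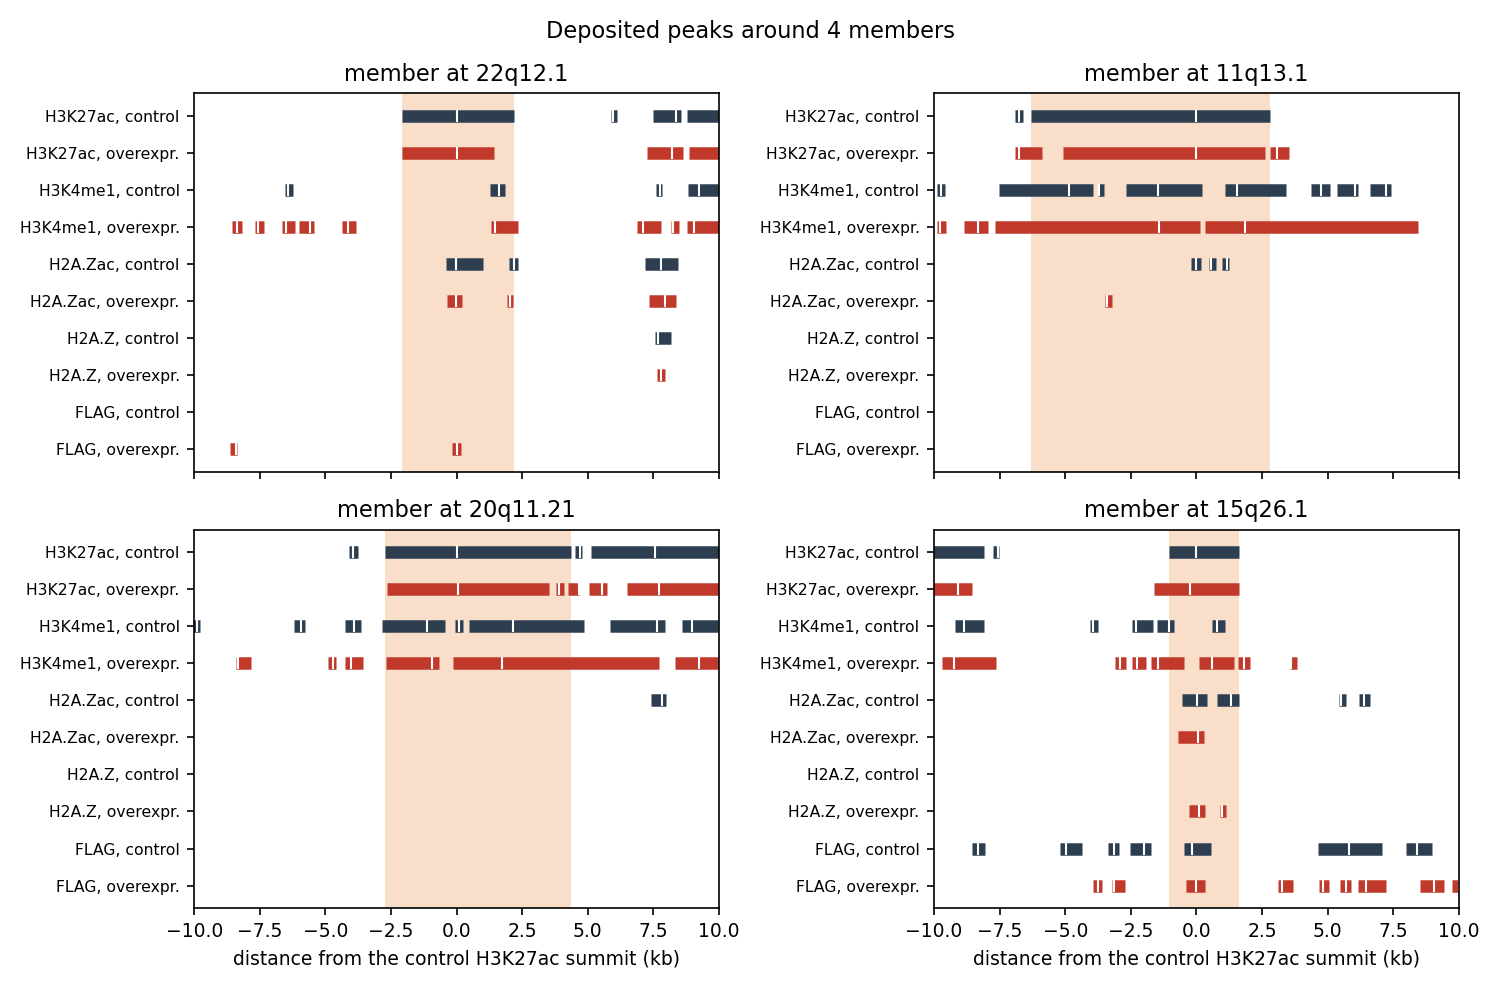
Deposited peaks of the 10 ChIP lists (rows; dark bars control, red bars overexpression, white ticks summits) around 4 members, by distance from the control H3K27ac summit (x axis, in kb); the shaded band is the member. The members at 22q12.1 and 15q26.1 carry H2A.Zac in both conditions, the one at 20q11.21 carries H3K27ac and H3K4me1 alone, and the widest, at 11q13.1, is almost covered by H3K4me1 with overexpression.

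The members were spread over all 23 chromosomes used. They made up 5.89% (4.21 to 8.20%) of the H3K27ac peaks of chromosome X and 22.9% (19.6 to 26.5%) of those of chromosome 22. Part of that range came from how often a chromosome had enhancer-like regions at all. As a share of enhancer-like regions, the members were fewest on chromosomes 19 and 20, with 43.6% (38.5 to 48.8%) and 45.3% (40.4 to 50.4%). Chromosomes 21, 8 and 16 had the highest such shares, with 68.9% (56.4 to 79.1%), 68.5% (62.1 to 74.3%) and 66.5% (59.6 to 72.7%).

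Bands and neighbours add detail, and those named here were chosen after their values were seen. Of 613 bands with a member, 19p13.3 had the most (35), followed by 12q24.31 (33) and 22q11.21 (32). That was 15.2, 24.3 and 27.6% of the H3K27ac peaks of these bands, against 16% of all H3K27ac peaks. Shares were compared among bands with 40 or more H3K27ac peaks. There members formed 47.6% (33.4 to 62.3%) of the H3K27ac peaks at 10q22.3, 43.6% (31.4 to 56.7%) at 18q21.31 and 41.4% (29.6 to 54.2%) at 20q11.21. With gaps of up to 12500 bp joined, 2085 members (51.6%) stood alone and 1958 fell into 763 runs. Runs were not counted over all H3K27ac peaks or in the other classes, so these counts need not be particular to the members. Runs of 10 members lay at 7q32.3, 1q32.2, 1p36.12 and 6p25.2, over 42885, 32003, 21227 and 20852 bp. The run at 6p25.2 had H2A.Zac in the control at 0 of its 10 members and kept H3K27ac at 7, and that at 1q32.2 had H2A.Zac at 5 and kept H3K27ac at 9. Over all members 52.7% had control H2A.Zac and 81.1% kept H3K27ac. None of the 4 runs had H2A.Z with overexpression, a call that was rare among members in any case.

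Raised local background touched part of the members. At 570 of them (14.1%) the background at the H3K27ac summit was 2 or more times the genome average, against 14.7% of the regions with H2A.Z and 11.1% of all H3K27ac peaks. Without these members control H2A.Zac was found at 52.8% and H3K27ac of overexpression at 80.3%, close to the shares over all members. Enhancer-like is used of the 2 chosen marks alone. Gene positions in the build of the files and a promoter mark were not analysed here, so promoters among the members could not be told from enhancers, and no member is assigned to a gene.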

How the data were processed

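Members, lists and classes were chosen with earlier results of these data known. Reads had been processed by the authors with FastQC, Trimmomatic, BWA and MACS2, per the submitters' processing notes, which give no versions and list hg19 beside hg38. Every peak on the 23 chromosomes fitted hg19 lengths, and coordinates are hg19, 1-based. Which control sample and cut-offs peak calling used is not given in the sources used here. Genotype labels of some overexpression libraries name other VPS genes, and the titles were followed. The same was done for control H3K4me1, whose peaks are named H3k3me1.

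Each deposited list gives, per peak, the authors' integer score, a fold (the ratio of the summit to the local background), −log10 p, −log10 q and a summit offset. The score was not used further. Fold, −log10 p and −log10 q are as deposited and describe or rank peaks within a list. Where folds of both conditions stand side by side they are description only, since a fold depends on depth. Overlap means at least 1 bp. Of several peaks on a member, the one with the highest −log10 q gives the fold, and reads and height are those of the highest summit inside the member. Solving the Poisson model of MACS2 for the deposited −log10 p and fold gave summit reads and genome averages. Whole reads came out, within 0.002 of the −log10 p (relative above 1), for 99.9% or more of each ChIP list. Recovery and overlap were tested on simulated data. Shares carry Wilson 95% intervals and medians order-statistic intervals.

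Named regions are the 4 strongest by control H3K27ac −log10 q, the 4 widest, the 3 strongest of each list outside the rule, the 3 strongest without H3K27ac of overexpression and the 3 strongest with no list outside the rule besides H3K27ac and H3K4me1. Alternatives changed the overlap, the width, the q and the distance to H2A.Z. Software was circlize 0.4.16 and GenomeInfoDb 1.38.1 in R 4.3.3, and scipy 1.17.1, pandas 2.3.3, matplotlib 3.10.9 and numpy 2.4.6 in Python 3.11.15. With no hg19 genome or annotation in use, gene locations and sequences were not analysed here.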

Additional observations from a re-analysis of the deposited data

How the results depend on the processing

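No height ratio crossed 1 under any alternative run. The order of the FLAG shares of the 2 conditions did turn, from 5.86 and 9.47% in the control and with overexpression to 2.57 and 1.41% with described lists at a q of 0.05 or less. Of all values, 35 of the 73 values under an alternative stayed within the counting interval of the main one, or within 1.5 times for a count. In this order the shares are of control H2A.Zac, H2A.Zac of overexpression, control FLAG, FLAG of overexpression, H3K27ac and H3K4me1. With a width minimum of 1000 bp there were 925 members, with 67.8, 39.4, 9.30, 12.9, 97.7 and 99.9% and an H3K27ac height ratio of 0.739. Choosing both marks at a q of 0.05 or less left 2055 members, with 59.3, 32.9, 7.01, 10.7, 90.1 and 99.7% and height ratios of 0.737 for H3K27ac and 1.24 for H3K4me1. Described lists at that q gave 34.2, 12.3, 2.57, 1.41, 62.8 and 96.5%, 0.396% for H2A.Z and an H3K4me1 ratio of 1.23. An overlap of at least 100 bp gave 8.41% for FLAG of overexpression, 79.7% for H3K27ac and 98.1% for H3K4me1. Leaving out members within 1000 bp of control H2A.Z gave 50.1% for control H2A.Zac and 25.8% for H2A.Zac of overexpression. Chosen after the data were seen, a rule in which only H2A.Z peaks at a q of 0.05 or less exclude gave 6010 members, with 66.2, 41.1, 7.97, 10.7 and 83.3% for the first 5 lists and 13.4% for H2A.Z. The highest summit of any overlapping peak gave an H3K27ac ratio of 0.773 and the rule in the overexpression lists 0.764, both also chosen after the data were seen. The cause of these shifts was not tested. No paired analysis was possible because each group held 1 library. Control FLAG summits on members had a median of 5 reads, so their counts carry a wide counting error.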
